A study of Mus musculus with 4 samples.

Results

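The genes described here are 10 members of the Bcl2 family of apoptosis regulators, taken from the 24411 genes listed for each library by their exact gene names: Bax, Bak1, Bok, Bcl2, Bcl2l1, Mcl1, Bcl2l10, Bcl2l11, Bid and Bbc3. They divide into 6 pro-apoptotic and 4 anti-apoptotic members, and the question addressed is how the balance between them differed when MYC was inhibited in mouse embryos. The embryos were of the ICR strain, an outbred mouse stock, and were made by in vitro fertilization and cultured in KSOM to the late two-cell stage. Collection was at 36 h post-insemination (hpi). The control embryos received the vehicle DMSO, and the treated embryos received 10074-G5 at 6 µM, a small molecule that blocks the pairing of MYC with its partner MAX. The treatment protocol gives the start as 3 hpi while the series design and the study's own account give 6 hpi. Each group had 2 libraries, each made from 10 pooled embryos by polyA-based SMART-Seq amplification, and nothing in either group was altered genetically. The inhibitor acts on the MYC protein, so the level of Myc mRNA does not show whether it worked. The study chose the dose from a series, by arrest of the embryos at the two-cell stage, and only this dose was sequenced. It also reported that part of the genes it called lower were MYC targets, as defined by MYC binding in mouse embryonic stem cells. The study says that targets may differ between those cells and early embryos.

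Apoptosis through the mitochondrion is decided by contacts between Bcl2 family proteins. The effectors BAX, BAK1 and BOK can open the outer mitochondrial membrane, which lets cytochrome c leave and join APAF1 in the complex that activates caspases. Anti-apoptotic members such as BCL2, BCL2L1 (BCL-XL) and MCL1 hold the effectors and the BH3-only proteins in check, while BH3-only proteins such as BIM (from Bcl2l11), BID and PUMA (from Bbc3) sense damage and release or activate the effectors. Early embryos depend on transcripts stored in the oocyte until their own genome is switched on, and in mouse the main wave of that activation falls in the late two-cell stage. MYC is known in other cells both to drive growth and to make cells more prone to apoptosis.

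The 4 libraries held between 18206584 and 20718690 expected counts. DMSO replicate 1 stood apart: it was the highest or the lowest of the 4 libraries in 78.1% of the 13549 tested genes, against 27.6% to 56.4% for the other libraries. All 20 listed maternal oocyte transcripts were above 1 TPM (transcript level scaled to the library) in every library. Their summed level, led by Dppa3, was 33549 and 29074 TPM in the control libraries and 30518 and 27578 TPM in the treated ones. Of the 11 listed transcripts typical of two-cell embryos, 10 were tested. Their summed level was 1423 and 5134 TPM in the control libraries and 6824 and 6992 TPM in the treated ones. This short list, led by Tcstv3, does not stand for the main wave of genome activation. The study reported genes of that wave among those lowered by the inhibitor. The median log2 fold change (log2FC, treated against control) was 0.67 for the listed oocyte transcripts and 1.06 for the listed two-cell transcripts. These became 0.37 and 0.34 without DMSO replicate 1. Cumulus and granulosa markers summed to between 12.1 and 27.4 TPM, led by Amhr2, with Foxl2, Amh, Ptx3, Inha and Inhba at 0 in all 4 libraries. Sperm markers summed to between 3.27 and 23.8 TPM, led by Prm2, and Prm1, Tnp2 and Smcp were at 0 throughout. How far the state of DMSO replicate 1 or of these transcripts enters the values below was not tested, and the log2FC of each tested member and of the pathway genes named is given with and without that library. The libraries are called biological replicates by the study, which does not say how the pools were drawn, so the p-values measure the spread between these 4 libraries.

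Gene levels were compared within a library as FPKM, which takes transcript length into account. Bcl2l10 was by far the most abundant member. It encodes a Bcl2 relative also known as Diva or Boo, is known for its high mRNA level in mouse oocytes, and is counted here with the anti-apoptotic members although both protective and killing actions have been described for it. Its level was 233 and 702 FPKM in the control libraries and 1124 and 1115 FPKM in the treated ones, and its rank by TPM among all listed genes was 659, 174, 82 and 95. Averaged over the 4 libraries, Bcl2l10 was at 793 FPKM and Mcl1 at 44.4 FPKM. Below them came Bax at 23.9, Bid at 20.5, Bcl2l11 at 11.3 and Bcl2l1 at 7.1 FPKM. The remaining members were low, with Bok at 1.72, Bcl2 at 0.253, Bbc3 at 0.15 and Bak1 at 0.0725 FPKM.

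The order was firm at some steps and not at others. Bcl2l10 lay above Mcl1, Bid above Bcl2l11, Bcl2l1 above Bok and Bok above Bcl2 in all 4 libraries with no overlap of their ranges. Mcl1 was above Bax, and Bcl2l11 above Bcl2l1, in all 4 libraries, although the ranges over libraries overlapped. Bax exceeded Bid only in DMSO replicate 1 and was below it in the other 3 libraries, so these neighbours were not separated. Bcl2, Bbc3 and Bak1 were near the limit of detection and could not be ordered. Of the 3 effectors, Bax was the highest in every library and Bak1 was listed at 0 FPKM in 3 libraries.

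**Figure D1:**
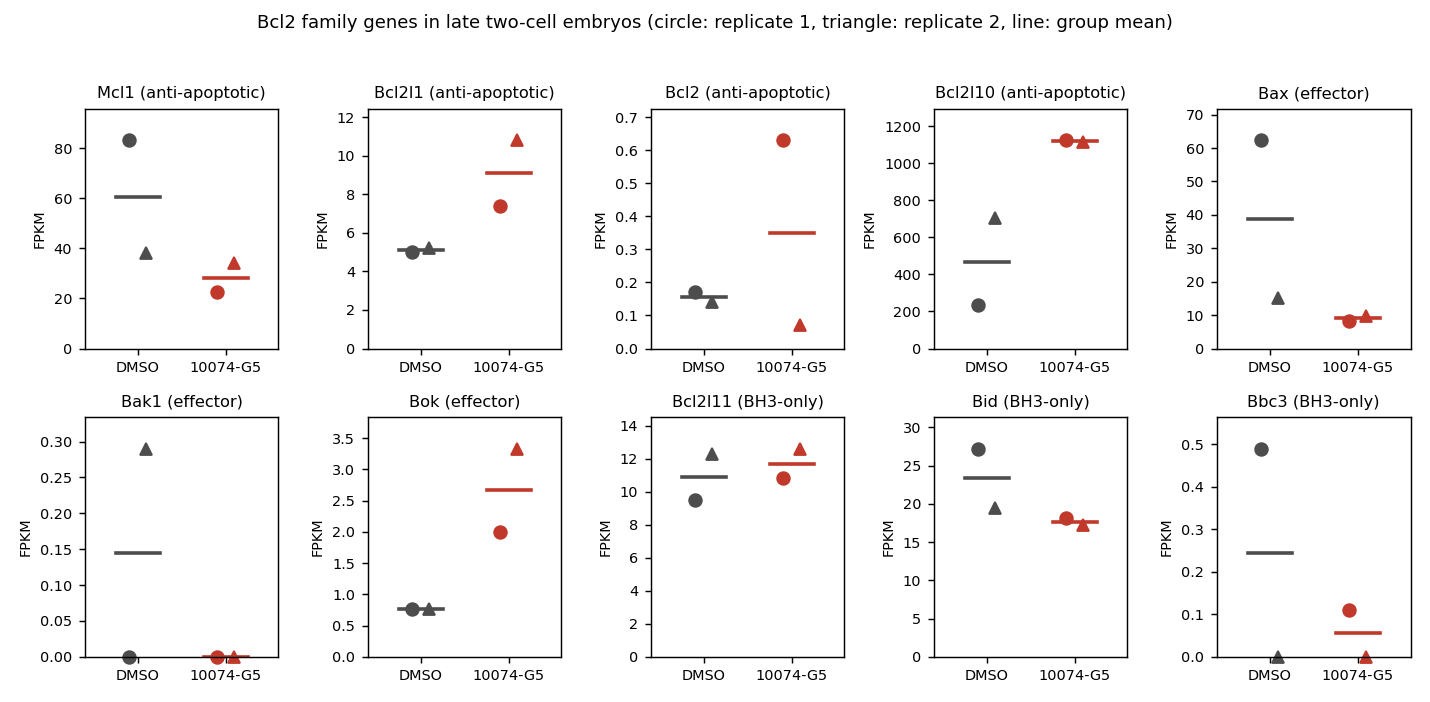
FPKM of each of the 10 Bcl2 family genes in the 4 libraries, 1 panel per gene with its own linear axis from 0; points are single libraries (10 pooled embryos each) and horizontal lines are the means of the 2 libraries of a group. In the Bax and Mcl1 panels DMSO replicate 1 lies far above the other libraries, in the Bcl2l10 panel it lies far below them, and in the Bok and Bcl2l1 panels the 2 control libraries lie close together below both treated ones.

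Differences between the groups were tested with edgeR on 13549 genes, after TMM scaling of depth-normalised counts (CPM). A gene was called when its adjusted p was below 0.05 and its log2FC beyond 1 in either direction. No gene passed (0% called), and the smallest adjusted p over all genes was 0.333. By DESeq2 with the deposited transcript lengths, 2.36% of 18208 genes were called lower and 0.456% were called higher in the treated embryos. The study itself used DESeq2 at these thresholds on the same libraries and also reported more genes lower than higher. In the edgeR fit, 10.1% of genes were lower and 4.72% higher at an unadjusted p under 0.05. In 28.3% of tested genes both treated libraries lay below both control libraries, and in 28.9% both lay above. With 2 libraries against 2, an exact permutation test on a single value cannot give a two-sided p below 0.333. No such test was run, and this limit does not set the edgeR or DESeq2 p-values, although the smallest edgeR adjusted p has the same value.

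Of the 10 members, 8 had enough counts to be tested and none was called by edgeR. Bax, Mcl1 and Bid were lower in both treated libraries than in both controls, and Bcl2l10, Bcl2l1 and Bok were higher in both. These are 3 and 3 of the 8 tested members, beside 28.3% and 28.9% of all tested genes. Bcl2 and Bcl2l11 overlapped between the groups. Bax and Mcl1 were lower and Bcl2l10 higher at an unadjusted p under 0.05, which is 2 and 1 of 8 members beside the 10.1% and 4.72% of all genes. DESeq2 with lengths called 1 member, Bax, as lower. The median log2FC was 0.04 over the 8 tested members and 0.04 over all tested genes. It was -0.29 over the 4 tested pro-apoptotic members and 0.38 over the 4 anti-apoptotic members, and these became -0.07 and 0.36 without DMSO replicate 1. In pooled embryos, fewer cells carrying a transcript and less of it per cell cannot be told apart.

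**Figure D2:**
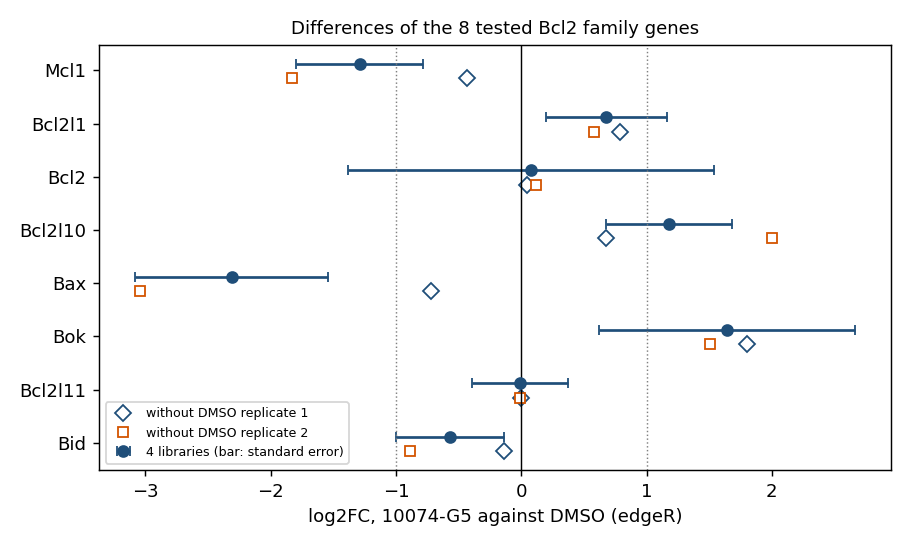
log2FC (treated against control embryos, edgeR) of the 8 tested members, with bars for 1 standard error of the fit to all 4 libraries and further symbols for the fits without DMSO replicate 1 and without DMSO replicate 2. Bax and Mcl1 shrink from -2.31 to -0.72 and from -1.29 to -0.43 without DMSO replicate 1, while Bok stays between 1.51 and 1.80 and Bcl2l1 between 0.58 and 0.79 whichever control is left out. Dotted lines mark the log2FC threshold of 1 in each direction.

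Among the effectors, Bax had the largest difference of the tested members with all 4 libraries, whereas without DMSO replicate 1 that of Bok (1.80) was larger than that of Bax (-0.72). BAX waits in the cytosol and inserts into mitochondria when it is activated. The gene lies on chromosome 7 at 45461697 to 45466898 (minus strand, GRCm38, GENCODE M21). It had 703 and 161 expected counts in the control libraries and 103 and 114 in the treated ones. As scaled CPM these were 42.1 and 8.52 against 4.77 and 5.43. The treated libraries lay close together and below both controls, but the controls differed from each other by 4.94-fold. The group means were 25.3 ± 23.7 and 5.1 ± 0.466 CPM (SD, n = 2 each), a 4.96-fold lower mean in treated embryos. The log2FC was -2.31 (SE 0.77, edgeR adjusted p = 0.333), which became -0.72 (edgeR adjusted p = 0.63) with DMSO replicate 1 left out and -3.04 (edgeR adjusted p = 0.000703) without DMSO replicate 2. DESeq2 with lengths gave -2.34 (SE 0.73, adjusted p = 0.0334), and over the alternatives the adjusted p ran from 0.000703 to 0.992.

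Bok was higher in the treated embryos. BOK is an effector found largely at the endoplasmic reticulum and is not held by the usual anti-apoptotic members. The gene lies on chromosome 1 at 93685660 to 93695764 (plus strand). Its expected counts were 17 and 16 in the controls and 48 and 76 in the treated libraries, or 1.02 and 0.846 against 2.22 and 3.62 CPM. Here the controls were close to each other and the treated libraries were above both. The means were 0.932 ± 0.121 and 2.92 ± 0.988 CPM (SD, n = 2 each), 3.14-fold higher with treatment. The log2FC was 1.64 (SE 1.02, edgeR adjusted p = 0.441), or 1.80 when DMSO replicate 1 was left out. With all 4 libraries Bok had the highest log2FC among the members that were higher, but Bcl2l10 exceeded it without DMSO replicate 2 (2 against 1.51) and with limma on log2(FPKM + 1) (1.47 against 1.03). Over the alternatives its adjusted p ran from 0.242 to 0.992. Bak1, whose product sits in the mitochondrial membrane, had 9 counts in DMSO replicate 2 and 0 in the other libraries, where the limit that a count of 0 allows is 3 counts, or 0.139 to 0.179 CPM. It was not tested and no fold is given. It lies on chromosome 17 at 27019810 to 27029009 (minus strand) and overlaps Ggnbp1.

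MYC and MAX bind the E-box CACGTG, so the 250 bases before the RefSeq start (GRCm38.p6) were searched for these letters. The motif reads the same on both strands, so a single search covers both. It was found in 1978 of 32851 promoter windows (6.02%). Windows were given for 9 members (not Bcl2l10), 14 in all, and 2 of these held the motif, 1 of Bax and 1 of Bbc3. The windows of the 2 members with the largest differences in either direction with all 4 libraries, Bax and Bok, and of Mcl1, the most abundant member that was lower, are shown 5′ to 3′, with the E-box in capitals. They lie at chr7:45466899-45467148 (minus strand) for Bax, chr1:93685325-93685574 (plus strand) for Bok and chr3:95658471-95658720 (plus strand) for Mcl1.
Bax: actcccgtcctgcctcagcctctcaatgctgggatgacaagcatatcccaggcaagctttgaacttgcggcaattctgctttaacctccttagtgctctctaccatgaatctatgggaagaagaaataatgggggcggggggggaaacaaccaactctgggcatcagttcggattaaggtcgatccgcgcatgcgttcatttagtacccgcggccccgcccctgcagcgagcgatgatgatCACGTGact
Bok: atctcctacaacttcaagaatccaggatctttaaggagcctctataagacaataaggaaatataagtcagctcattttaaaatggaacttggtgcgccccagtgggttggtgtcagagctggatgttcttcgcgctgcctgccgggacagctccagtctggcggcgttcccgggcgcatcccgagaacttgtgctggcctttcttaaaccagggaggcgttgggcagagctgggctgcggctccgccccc
Mcl1: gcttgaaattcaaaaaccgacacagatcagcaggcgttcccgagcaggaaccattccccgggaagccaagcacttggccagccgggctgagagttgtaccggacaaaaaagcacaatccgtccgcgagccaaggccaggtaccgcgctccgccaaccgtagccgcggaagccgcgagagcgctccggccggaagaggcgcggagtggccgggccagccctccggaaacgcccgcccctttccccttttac
The Bax E-box lies 9 to 4 bases before the start, and a second copy falls within the first 50 transcribed bases. The windows of Bok and Mcl1 hold no CACGTG, which says only that these letters do not occur there. Whether MYC was bound at any of these places was not measured.

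Among the anti-apoptotic members, Mcl1 was lower and Bcl2l10 higher in treated embryos. MCL1 is a short-lived protein that binds BAK1 and BIM and that embryos need around implantation. The gene lies on chromosome 3 at 95658788 to 95663176 (plus strand). It had 305 and 117 CPM in the control libraries and 69.5 and 103 CPM in the treated ones. DMSO replicate 1 was well above the rest, and DMSO replicate 2 was little above the higher treated library. The means were 211 ± 133 and 86.2 ± 23.6 CPM (SD, n = 2 each), 2.45-fold lower with treatment, where the 2 controls differed by 2.6-fold. The log2FC was -1.29 (SE 0.51, edgeR adjusted p = 0.333). It was -0.43 (edgeR adjusted p = 0.56) without DMSO replicate 1 and -1.83 (edgeR adjusted p = 0.00119) without DMSO replicate 2.

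Bcl2l10 lies on chromosome 9 at 75347758 to 75351632 (plus strand). It had 4226 and 12113 expected counts in the controls and 22219 and 20953 in the treated libraries, or 253 and 641 against 1030 and 999 CPM. The treated libraries differed by 1.03-fold from each other and the controls by 2.53-fold. The means were 447 ± 274 and 1014 ± 22.0 CPM (SD, n = 2 each), 2.27-fold higher with treatment. The log2FC was 1.18 (SE 0.50, edgeR adjusted p = 0.334). It was 0.68 (edgeR adjusted p = 0.219) without DMSO replicate 1 and 2 (edgeR adjusted p = 0.000509) without DMSO replicate 2. Its difference had the same sign as the medians of the oocyte and the two-cell transcripts given above. Of the 20 oocyte transcripts 16 had a positive log2FC, beside 6973 of all 13549 tested genes. Their summed level was not higher with treatment. The highest single transcript value in that list was 28478 TPM, so the sum says little about the other transcripts. Whether the level of Bcl2l10 is tied to that of these transcripts was not tested.

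Bcl2l1, whose product BCL-XL guards the mitochondria of many cell types, was higher in both treated libraries. It lies on chromosome 2 at 152780668 to 152831728 (minus strand), overlaps the predicted gene Gm32211, and its counts cover 4 transcripts. The controls had 12.4 and 10.8 CPM and the treated libraries 15.2 and 21.8 CPM. The controls were close together and the spread was larger between the treated libraries. The means were 11.6 ± 1.13 and 18.5 ± 4.62 CPM (SD, n = 2 each), a 1.6-fold higher mean. The log2FC was 0.68 (SE 0.48, edgeR adjusted p = 0.494), and 0.79 without DMSO replicate 1. Bcl2 itself, on chromosome 1 at 106538178 to 106714274 (minus strand), had 15 and 18 counts in the controls and 32 and 10 in the treated libraries. The treated libraries lay on either side of the controls, and the log2FC was 0.08 (SE 1.46, edgeR adjusted p = 0.985). It was 0.05 without DMSO replicate 1 and -0.91 without treated replicate 1. RSEM split the Bcl2 reads over 2 transcripts in unequal ways, with a mean transcript length of 2723 bases in treated replicate 1 and 7207 bases in treated replicate 2, and with these lengths DESeq2 gave a log2FC of 1.02. At these counts a difference in Bcl2 was not detectable.

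Of the BH3-only members, Bcl2l11 was the most even gene of the family. It encodes BIM, which can bind every main anti-apoptotic member and activate BAX. It lies on chromosome 2 at 128126038 to 128162547 (plus strand), overlaps Acoxl, and its counts cover 5 transcripts. Its levels were 42.0 and 42.0 CPM in the controls and 39 and 44.3 CPM in the treated libraries. The treated libraries lay on either side of the controls. The log2FC was -0.01 (SE 0.38, edgeR adjusted p = 0.992), and 0.00 without DMSO replicate 1. Bid, whose product links death receptors to mitochondria after cleavage by caspase-8, lies on chromosome 6 at 120891930 to 120916853 (minus strand) and overlaps Bcl2l13 and Gm17812. It had 50.2 and 30.3 CPM in the controls and 28.1 and 26.2 CPM in the treated libraries. DMSO replicate 1 was high and the other 3 libraries were close together. The log2FC was -0.57 (SE 0.43, edgeR adjusted p = 0.524), and -0.14 without DMSO replicate 1. Without DMSO replicate 2 it was -0.89 (edgeR adjusted p = 0.046), which is past the p threshold but not past the fold threshold. Bbc3, the gene of the p53 target PUMA on chromosome 7 at 16308393 to 16318205 (plus strand), had 16 and 0 counts in the controls and 4 and 0 in the treated libraries, and was not tested.

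The balance was described in each library as log2 of the summed FPKM of the 6 pro-apoptotic members over the summed FPKM of the 4 anti-apoptotic members. Such a ratio within a library does not depend on how libraries are scaled to each other. The pro-apoptotic sum was 100 and 47.9 FPKM in the controls and 39.4 and 42.9 FPKM in the treated libraries. The anti-apoptotic sum was 321 and 745 FPKM in the controls and 1155 and 1160 FPKM in the treated libraries. The log2 ratio was -1.68 and -3.96 in the controls and -4.87 and -4.76 in the treated libraries, so anti-apoptotic mRNA exceeded pro-apoptotic mRNA 3.2-fold and 15.6-fold in controls and 29.3-fold and 27-fold with treatment. All 4 libraries thus held an excess of anti-apoptotic mRNA by this sum, larger in both treated libraries than in either control. The means were -2.82 ± 1.61 and -4.82 ± 0.08 (SD, n = 2 each), a difference of -2, which was -0.85 against DMSO replicate 2 alone and -3.14 against DMSO replicate 1 alone. It was -1.22 with sums of CPM and -0.78 with the mean of log2(FPKM + 0.1) over the members of each side. The last measure weighs all members alike, including Bak1 and Bbc3, which had too few counts to be tested.

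This excess rested on 1 gene. Bcl2l10 supplied 72.5% and 94.2% of the anti-apoptotic sum in the controls and 97.4% and 96.1% in the treated libraries. Without it the log2 ratio was 0.18 and 0.14 in the controls and 0.37 and -0.06 in the treated libraries. The pro- and anti-apoptotic sums were then nearly equal in every library, and the groups overlapped. The means were 0.16 ± 0.03 and 0.15 ± 0.30 (SD, n = 2 each), a difference of -0.01.

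The make-up of each side differed more than the balance without Bcl2l10 did. Bax supplied 62.1% and 31.4% of the pro-apoptotic sum in the controls and 21.2% and 22.7% in the treated libraries. The share of Bcl2l11 was 9.49% and 25.7% in the controls and 27.5% and 29.4% in the treated libraries. The summed effectors were at 63.1 and 16.1 FPKM in the controls and 10.3 and 13.1 FPKM with treatment. The summed BH3-only members were at 37.2 and 31.8 FPKM in the controls and 29.1 and 29.8 FPKM with treatment. Both sums were thus lower in both treated libraries, with a narrower range for the BH3-only members. Mcl1 exceeded Bcl2l1 16.6-fold and 7.27-fold in the controls and 3.04-fold and 3.15-fold in the treated libraries. The ratio of Bax to Mcl1, which were both lower with treatment, ranged from 0.75 and 0.395 in the controls to 0.371 and 0.287. For each of these shares and ratios DMSO replicate 1 lay farther from the treated libraries than DMSO replicate 2 did.

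**Figure D3:**
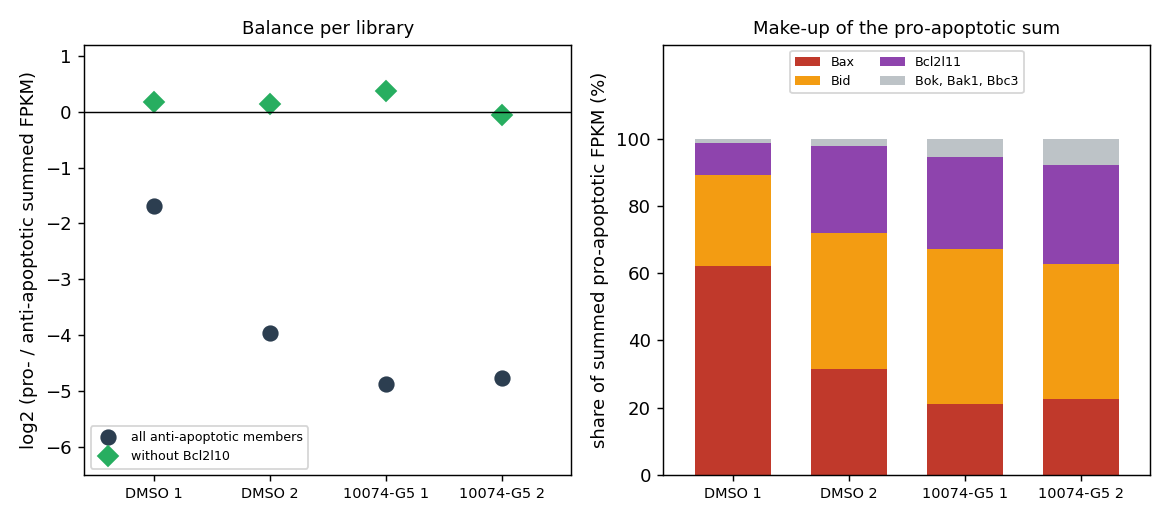
Left, log2 of the pro-apoptotic over the anti-apoptotic summed FPKM in each library, with all 4 anti-apoptotic members (circles) and without Bcl2l10 (diamonds). Right, percent of the pro-apoptotic sum supplied by Bax, Bid, Bcl2l11 and the remaining members; the circles run from -1.68 to -4.87 while the diamonds stay between -0.06 and 0.37, and the share of Bax is 62.1% in DMSO replicate 1 and 21.2% to 31.4% elsewhere.

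Around the members, 71 other genes of the pathway were read from 8 lists. Of these, 57 were tested, none was called by edgeR, 4 were lower and 3 higher at an unadjusted p under 0.05, and 17 lay lower and 16 higher without overlap between the groups. Over all tested genes the shares were 10.1% and 4.72% at an unadjusted p under 0.05 and 28.3% and 28.9% without overlap, so the counts without overlap were near the background. DESeq2 with lengths called 3 of them, Bcl2l14 and Bnip3 as lower and Vdac3 as higher, where it called 2.36% of all genes lower and 0.456% higher. Their median log2FC was 0.14, and -0.08 without DMSO replicate 1, beside 0.04 and 0.03 for all tested genes.

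Among 11 further Bcl2-related genes and genes of the mitochondrial membrane, all tested, 6 were lower and 4 higher without overlap (28.3% and 28.9% of all tested genes), and the median log2FC was -0.12, and -0.18 without DMSO replicate 1. Bnip3, a BH3-like protein of mitophagy, was at 1499 and 599 CPM in the controls and 301 and 309 CPM in the treated libraries, with an edgeR log2FC of -1.78 (SE 0.50, edgeR adjusted p = 0.333, DESeq2 adjusted p = 0.0148), and -0.96 without DMSO replicate 1. Vdac3, a channel of the outer mitochondrial membrane, was at 74.3 and 156 CPM against 363 and 329 CPM, with an edgeR log2FC of 1.59 (SE 0.45, edgeR adjusted p = 0.333, DESeq2 adjusted p = 0.0219), and 1.16 without that library. Bcl2l14 and Vdac2 are named after their values were seen. Bcl2l14, another Bcl2 relative, was at 58.1 and 22.7 CPM against 5.75 and 13.8 CPM, with a log2FC of -2.05 and a DESeq2 adjusted p = 0.0318, and -1.2 without DMSO replicate 1. Vdac2, the channel known to hold BAK1 inactive and to bring BAX to mitochondria, was at 49.2 and 55.9 CPM against 116 and 97.6 CPM, with a log2FC of 1.02, and 0.95 without that library. For these 4 genes the treated libraries lay outside the range of both controls.

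In the list of other anti-apoptotic members, Bcl2l2 (BCL-W) was the only 1 of 5 genes with enough counts. It was at 4.01 and 2.7 CPM in the controls and 0.927 and 0.81 CPM in the treated libraries, with a log2FC of -1.94 (SE 0.97), and -1.61 without DMSO replicate 1. The copies Bcl2a1a, Bcl2a1b, Bcl2a1c and Bcl2a1d, which are nearly identical, were not tested. The study kept only uniquely mapped reads, so reads that match several of these copies may not have been counted. Of the 5 other BH3-only genes 4 were tested, with 2 lower and 1 higher without overlap (28.3% and 28.9% of all tested genes). Bad, which growth signals silence by phosphorylation, was at 15.2 and 5.71 CPM against 2.13 and 5.29 CPM, with a log2FC of -1.49 that became -0.60 without DMSO replicate 1. Bik was higher at 9.92 and 9.15 CPM with treatment against 2.33 and 3.76 CPM, with a log2FC of 1.64 and an unadjusted p under 0.05, and 1.36 without that library. Hrk was not tested.

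Downstream of the mitochondrion, 8 of 11 apoptosome and caspase genes were tested, with 3 lower and none higher without overlap (28.3% and 28.9% of all tested genes) and a median log2FC of -0.16, and -0.13 without DMSO replicate 1. None passed an unadjusted p of 0.05. Apaf1, the scaffold of the apoptosome, was at 64.3 and 27 CPM in controls and 24.8 and 17.2 CPM in treated libraries (log2FC -1.12, and -0.35 without DMSO replicate 1). Casp6, an executioner caspase, was at 21.1 and 16.7 CPM against 12 and 6.77 CPM (log2FC -1.01, and -0.82 without that library). Of 9 genes for inhibitors of apoptosis and their antagonists 7 were tested. Birc6, a very large ubiquitin ligase of this family, was lower at 32.6 and 33.8 CPM against 104 and 56.4 CPM (log2FC -1.27, and -0.75 without DMSO replicate 1). Birc3, a ligase that acts in NF-kappaB signalling, was at 148 and 130 CPM against 55.5 and 117 CPM (log2FC 0.69, and 0.27 without that library).

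Genes that govern the life of the MCL1 protein were listed because its level depends on turnover as well as on mRNA. Of 7 listed, 6 were tested, with 1 lower and 3 higher without overlap (28.3% and 28.9% of all tested genes). Btrc, an adaptor of a ubiquitin ligase, was at 46.6 and 18.6 CPM in the controls and 6.81 and 13.2 CPM in the treated libraries (log2FC -1.70, and -0.88 without DMSO replicate 1). March5, a mitochondrial ubiquitin ligase, was at 253 and 477 CPM against 657 and 555 CPM (log2FC 0.73, and 0.36 without that library). Of 9 death receptor genes 7 were tested. Ripk1, a kinase that passes on death receptor signals, was at 6.88 and 22.1 CPM against 35.7 and 31.2 CPM (log2FC 1.21, and 0.61 without DMSO replicate 1). Tnfrsf10b, a receptor for TRAIL, was at 0.598 and 1.59 CPM against 3.85 and 4.05 CPM (log2FC 1.84, and 1.33 without that library). The median of this list was 0.82 with all libraries and -0.16 without DMSO replicate 1, so its direction rested on that library. Of 14 genes of the p53 axis 13 were tested, with 2 lower and 2 higher without overlap (28.3% and 28.9% of all tested genes). Trp73, a relative of p53, was at 0.0598 and 1.96 CPM against 4.26 and 3.67 CPM (log2FC 1.96, SE 1.34, and 1.03 without DMSO replicate 1). Its value in DMSO replicate 1 is under the limit of 3 counts (0.179 CPM), so the size of the first log2FC is uncertain. Sesn2, a stress-responsive p53 target, was at 26.3 and 18.5 CPM against 14.5 and 14.5 CPM (log2FC -0.62, and -0.33 without that library). Trp53 itself was at 31.5 and 41.5 CPM in the controls and 28.3 and 36.7 CPM in the treated libraries (log2FC -0.17, and -0.34 without DMSO replicate 1). Mdm2, its negative regulator and target, was at 238 and 200 CPM against 207 and 196 CPM (log2FC -0.12, and 0.03 without that library). Both are named outside the rule, after their values were seen, as the genes at the head of this axis.

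**Figure D4:**
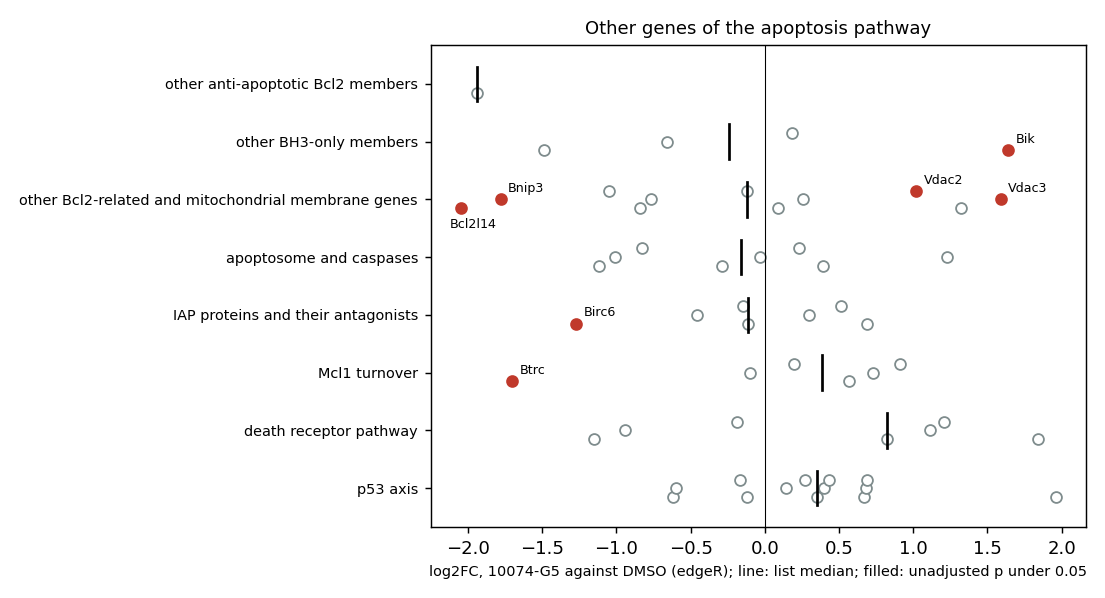
log2FC (treated against control embryos, edgeR) of the 57 tested genes in the 8 further lists, 1 row per list; points are genes, filled where the unadjusted p was under 0.05, and short lines are list medians. The medians of the lists with more than 1 tested gene lie between -0.24 and 0.82, with points on either side of 0 in these lists.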

How the data were processed

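RNA from 4 pools of embryos (2 given DMSO and 2 given the inhibitor) was sequenced by the study after SMART-Seq v4 PLUS amplification. Per the labels, the submitters' processing notes name STAR (2.7.10), RSEM (1.3.3) and mm10. The authors deposited, per gene and library, the RSEM expected count, TPM and FPKM. Expected counts were rounded and used for the tests, FPKM for levels between genes and for the balance, and TPM for ranks and markers. RSEM shares reads between transcripts and overlapping genes, so members that overlap other genes carry that uncertainty.

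Genes passing filterByExpr (minimum count 10, total 15) were scaled by TMM and tested with edgeR 4.0.16 (quasi-likelihood, robust, R 4.3.3) with Benjamini-Hochberg adjustment over 13549 genes. SE is the log2FC divided by the root of F. Alternatives used DESeq2 1.42.0, limma 3.58.1 on log2(FPKM + 1) or with 0.1, other scalings and filters, a replicate block, and each library left out. Leaving out 1 library leaves a lone sample assumed to vary like the other group. The scripts were tested on simulated data in which all genes shared a common spread and no library stood apart. That test checks the code and does not cover a control library like DMSO replicate 1. The members, the 8 pathway lists and the 4 marker lists were chosen with earlier results of these data known. All members were named, with the 2 genes of smallest unadjusted p in each pathway list and every gene of a list with fewer than 3 tested genes. Promoters are from RefSeq (GRCm38.p6).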

Additional observations from a re-analysis of the deposited data

How the results depend on the processing

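With 2 libraries a group and controls that differed by up to 4.94-fold among the 8 tested members, calls depended on the method and on which control was used. The edgeR fit above called 0 members, 0 other pathway genes and 0 of all genes. DESeq2, which the study used at the same thresholds, called 1, 3 and 566 on the same genes. On all genes it called 1, 3 and 524, and with transcript lengths 1, 3 and 512. With no filter, edgeR called 1, 3 and 644. The unadjusted p gave 3, 7 and 1889. Leaving out each library in turn gave 0 to 3 members, 0 to 20 pathway genes and 2 to 4213 genes, the highest of each without DMSO replicate 2. The replicate block called 44 genes and no member. Whether same-numbered libraries shared a day or batch is not given. The correlation of their deviations (-0.0343) cannot decide it, since DMSO replicate 1 stood apart. Bcl2 turned to -0.12 with the replicate block and ran from -0.91 to 0.68 with a library left out. Bcl2l11, at -0.01, turned to 0.10 and 0.11 with limma (pseudocounts 1 and 0.1), 0.13 with library totals and 0.02 with a minimum of 10 counts, and ran from -0.11 to 0.12 with a library left out. The difference in balance, -2, was -0.01 without Bcl2l10, -1.22 with sums of CPM and -0.78 with the mean of log2(FPKM + 0.1), and ran from -3.14 to -0.85 with a library left out. Of 110 member values under the alternatives, 95 kept direction and side of the threshold, 7 passed it newly and 8 changed sign. The number of members without overlap was 6 under each of the other scalings, as in the main one. There, 28.3% of all tested genes lay lower and 28.9% higher without overlap. The causes were not tested. Bak1 and Bbc3 had too few counts at this depth to be tested, and the counts of Bcl2 and Bok were low. In the mean of log2(FPKM + 0.1) these genes weigh as much as the abundant ones.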
